A study of Arabidopsis thaliana with 18 samples.

Results

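Auxin is made and removed by small enzyme families, and 10 of their genes, of 37336 genes in the count tables, are described here. They were taken by gene identifier, with earlier results of these data known: the aminotransferase gene TAA1 (AT1G70560), the flavin monooxygenase genes YUC1 (AT4G32540), YUC2 (AT4G13260), YUC4 (AT5G11320), YUC8 (AT4G28720) and YUC9 (AT1G04180), and the amido synthetase genes GH3.3 (AT2G23170), GH3.5 (AT4G27260, also WES1), GH3.6 (AT5G54510, also DFL1) and GH3.17 (AT1G28130). RNA of Arabidopsis thaliana shoot apices was sequenced in 3 genotypes, all in ecotype Col-0: the ft-10 mutant, described in the study's methods as a null, the wild type, and the tfl1-1 mutant, described there as severe. FT is the leaf-made florigen that promotes flowering and TFL1 is its antagonist at the apex. Every plant was 42 days old and had grown in short days of 8 h light and 16 h dark. The plants were left untreated or received far-red light enriched photoinduction (FRP), a single long photoperiod of 24 h that induces FT in leaves. Leaves and roots were removed before harvest. Each of the 6 conditions had 3 libraries, described as biological replicates, and the labels mark the 2 per condition, 12 in all, that the study kept for differential expression. The main tests use these 12, and values of all 18 are printed.

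In plants, TAA1 converts tryptophan to indole-3-pyruvate, and YUC enzymes convert this to the auxin indole-3-acetic acid. GH3 enzymes join auxin to amino acids, which takes it out of the active pool for storage or breakdown, and several GH3 genes are themselves quickly induced by auxin. At the shoot apex, local auxin maxima mark where leaf and flower primordia arise, and YUC genes supply part of that auxin.

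Between 20470477 and 35851716 reads per library were assigned to genes. Replicate 1 of the untreated wild type, which the study did not keep, stood apart: its rank correlation with its own group reached 0.936, against 0.993 to 0.998 for the other 17 libraries, and it was closer to an untreated ft library (0.979). FT had 11 to 36 counts in the 6 libraries labelled ft and 0 to 3 in the other 12. These counts are higher, not lower, where FT is mutated, and because a count over the whole gene does not show which part was read and FT is normally transcribed in leaves, they do not check the label. tfl1-1 is a point mutation that counts cannot check either, so directions for both mutants rest on the labels. Of 3 photosynthetic leaf markers, RBCS1A and LHCB1.3 passed as lower upon FRP in the wild type and tfl1, and LHCB1.3 alone in ft (edgeR). RBCS1A was also lower in ft after FRP, at 1940 to 2135 against 2734 to 2863 CPM, without overlap. The summed level of the 3 ranged from 12590.5 to 14176 CPM (the gene's count scaled per 1e+06 counts of the library) in the untreated wild type and from 2811 to 4117 CPM after FRP. It ranged from 12309 to 13391 and then 2898 to 3488 CPM in tfl1, but from 10778.5 to 11847.5 and then 7423 to 8376 CPM in ft. The third marker, RCA, passed in no genotype with edgeR, whereas DESeq2 called all 3 markers in the wild type. RCA had 149 to 320 and then 195 to 271 CPM in the wild type. In tfl1 it had 167 to 177 and then 166 to 212 CPM. In ft RCA was higher after FRP, at 323 to 327 against 271 to 287 CPM, without overlap. Of 4 meristem markers, STM and KNAT1 rose upon FRP in every genotype, CLV3 fell in the wild type (log2 -2.18 ± 0.56, adjusted p = 0.00343, edgeR), though not with length and GC trends removed (-1.34, adjusted p = 0.0547), and WUS was too low to test. Of 4 root markers, 3 stayed at 3 counts or fewer in every library. The other, WOX5, fell upon FRP in the wild type (log2 -3.17 ± 0.29, adjusted p = 1.18e-06, edgeR) and tfl1 (-2.00 ± 0.31, adjusted p = 0.00018). Among 4 floral organ genes, PI reached a level that could be tested, with 1 to 20 counts per library. Its log2 fold changes of 1.20, 1.34 and 0.66 in the wild type, tfl1 and ft missed the threshold (edgeR). The unadjusted p was under 0.05 in the wild type and tfl1. The part of these shifts in the results below was not tested. In whole apices, fewer cells of a type and less RNA per cell cannot be told apart.

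The 4 members on which the results turn most are shown by the 300 bases before their transcription start, from the TAIR10.1 assembly of RefSeq, 5′ to 3′ on the strand of the gene. GH3.5 and GH3.6 encode closely related enzymes, and capitals mark the 5 exact runs of at least 9 bases that both stretches hold in the same order. The longest, CACGAATAGTAAGC, has 14 bases and begins 125 bases before the start in both. The run CGTTCACTTAA begins 112 bases before the start in GH3.5, where its first base is the last of that run. In GH3.6 it begins at 111 and follows directly, so both runs print as a single block in each gene. GH3.5 lies at chr4:13653279-13653578 on the plus strand and GH3.6 at chr5:22133689-22133988 on the minus strand.
GH3.5: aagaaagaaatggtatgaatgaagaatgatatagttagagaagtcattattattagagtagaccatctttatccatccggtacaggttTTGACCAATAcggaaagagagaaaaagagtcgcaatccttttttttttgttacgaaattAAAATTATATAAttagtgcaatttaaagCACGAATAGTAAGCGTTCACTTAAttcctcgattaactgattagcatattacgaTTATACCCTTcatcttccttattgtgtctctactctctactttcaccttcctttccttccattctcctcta
GH3.6: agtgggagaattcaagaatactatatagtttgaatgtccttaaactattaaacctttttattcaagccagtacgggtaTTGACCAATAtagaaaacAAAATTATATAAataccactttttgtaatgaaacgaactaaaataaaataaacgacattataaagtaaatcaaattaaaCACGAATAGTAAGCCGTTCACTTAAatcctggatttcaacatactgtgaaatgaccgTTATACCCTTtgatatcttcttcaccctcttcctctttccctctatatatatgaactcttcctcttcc
YUC8 and YUC9 belong to the YUC genes known to respond to shade light, and capitals mark CACATG, a variant of the G-box to which phytochrome-interacting factors can bind. This motif was added after the sequences had been seen. YUC8 lies at chr4:14192269-14192568 and YUC9 at chr1:1104193-1104492, both on the plus strand.
YUC8: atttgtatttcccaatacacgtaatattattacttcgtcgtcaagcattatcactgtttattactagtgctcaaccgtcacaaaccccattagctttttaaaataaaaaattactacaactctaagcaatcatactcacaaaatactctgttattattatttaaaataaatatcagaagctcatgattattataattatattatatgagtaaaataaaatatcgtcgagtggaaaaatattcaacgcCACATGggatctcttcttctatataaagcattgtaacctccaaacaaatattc
YUC9: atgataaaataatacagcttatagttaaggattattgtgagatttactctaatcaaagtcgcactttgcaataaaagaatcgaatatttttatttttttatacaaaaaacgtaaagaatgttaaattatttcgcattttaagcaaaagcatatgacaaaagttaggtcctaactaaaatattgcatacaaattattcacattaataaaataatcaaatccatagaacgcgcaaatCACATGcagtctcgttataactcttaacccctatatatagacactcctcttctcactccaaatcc
On either strand, CACATG was found in 5 of the 10 members (YUC2, YUC8, YUC9, GH3.3 and GH3.17) and in 13.1% of 27443 promoters of the same length. The G-box CACGTG was in 0 of the 10, against 7.09% of promoters. The auxin response element TGTCTC was in YUC2, GH3.3 and GH3.5, where it begins 44, 116 and 47 bases before the start, against 13.0% of promoters. Its variant TGTCGG was in 0 of the 10, against 4.91%. No match overlapped another, and a match is only a run of letters.

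Levels per kilobase of exon allow the members to be compared with each other. In the untreated wild type, GH3.6 had the highest level at 64.6 ± 20.5 CPM per kb (SD, n = 3), followed by GH3.5 at 24.6 ± 11.02, GH3.17 at 10.3 ± 2.5 and GH3.3 at 9.50 ± 4.06. Only GH3.17 and GH3.3 overlapped among these neighbours. TAA1 followed at 4.52 ± 0.66, YUC4 at 2.41 ± 0.16, YUC1 at 1.94 ± 0.22, YUC2 at 0.76 ± 0.27, YUC8 at 0.46 ± 0.07 and YUC9 at 0.20 ± 0.08 CPM per kb. Of these, YUC2 and YUC8 overlapped. The order was nearly the same elsewhere. In untreated ft, GH3.3 stood above GH3.17, at 11.6 ± 0.2 against 10.5 ± 0.2 CPM per kb, and in the treated wild type the ranges of YUC1, YUC9, YUC8 and YUC2 each overlapped the next. GH3.3 there overlapped TAA1 (6.25 ± 1.11 against 5.15 ± 1.13 CPM per kb). After FRP, YUC8 stood above YUC2 in ft, at 1.15 ± 0.19 against 0.44 ± 0.06 CPM per kb, and in tfl1, at 0.514 ± 0.090 against 0.126 ± 0.050 CPM per kb. After FRP in the wild type and tfl1, GH3.5 reached the range of GH3.6 (68.7 ± 8.9 against 79.9 ± 12.5, and 69.2 ± 11.6 against 92.0 ± 16.5 CPM per kb). All 10 members passed the filter on low counts, but YUC9 had 1 to 25 counts per library and YUC8 6 to 75, so that counting error is large for both.

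**Figure D1:**
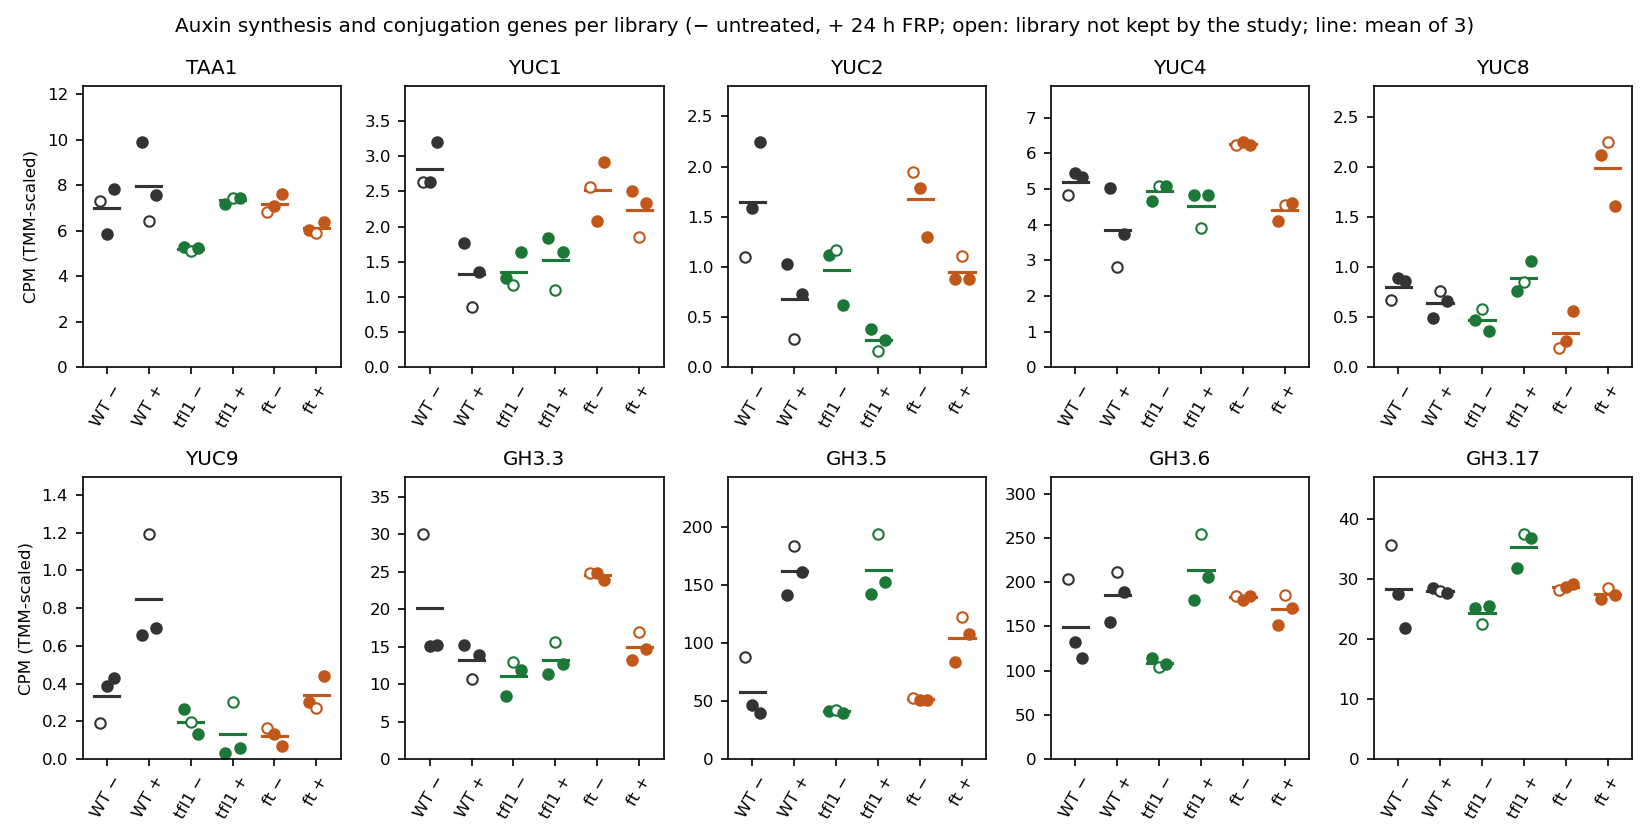
Level of each of the 10 genes in each of the 18 libraries, in CPM on axes that start at 0. Columns are the 6 conditions, filled circles the 12 libraries kept by the study, open circles the 6 others and lines the means of 3. GH3.5 is higher after FRP in every genotype, YUC8 is highest in ft after FRP (1.61 to 2.24 CPM), and YUC2 is lower after FRP in every genotype.

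Of the 6 synthesis genes, YUC1 passed the test in the wild type, where it fell, and YUC8 in ft, where it rose. In tfl1, YUC2 passed with all 18 libraries but not with 12. TAA1, the first enzyme of the pathway, had 7.31, 5.85 and 7.82 CPM in the untreated wild type and 9.89, 6.45 and 7.56 CPM after FRP (replicates 1, 2 and 3). These overlapped, and the log2 fold change was 0.36 ± 0.16 (SE, adjusted p = 0.0538, edgeR). In tfl1 it was 5.29, 5.12 and 5.25 CPM before and 7.19, 7.45 and 7.45 CPM after FRP, which did not overlap. The fold change of 1.39 missed the threshold of 0.005 (log2 0.47 ± 0.15, adjusted p = 0.0181, edgeR), although it passed when all 18 libraries were used without the aberrant wild-type one (log2 0.50, adjusted p = 0.00362). In ft, TAA1 had 6.81 to 7.63 CPM before and 5.89 to 6.37 CPM after FRP, with a log2 fold change of -0.24 ± 0.15.

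YUC1, a YUC gene active at the inflorescence apex and in flowers, fell upon FRP in the wild type. It had 2.63, 2.63 and 3.195 CPM in untreated and 1.77, 0.86 and 1.36 CPM in treated plants, with no overlap. The log2 fold change was -0.90 ± 0.24 (adjusted p = 0.00412, edgeR), and -1.07 with all 18 libraries (adjusted p = 0.0016). The call was lost with DESeq2 (adjusted p = 0.0105) and without any one of the 4 wild-type, the 2 treated ft or the 2 treated tfl1 libraries, with log2 values from -1.10 to -0.71. In tfl1, YUC1 started lower, at 1.27, 1.17 and 1.64 CPM, and stayed at 1.84, 1.10 and 1.64 CPM after FRP. In ft it had 2.56, 2.08 and 2.92 CPM before and 2.51, 1.85 and 2.34 CPM after FRP, and both of these pairs of groups overlapped.

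YUC2 was lower in every treated library than in every untreated library of its genotype. It had 1.10, 1.59 and 2.24 CPM in the untreated and 1.03, 0.29 and 0.73 CPM in the treated wild type. The levels were 1.12, 1.17 and 0.62 CPM and then 0.38, 0.16 and 0.27 CPM in tfl1, and 1.94, 1.78 and 1.29 CPM and then 0.88, 1.11 and 0.88 CPM in ft. With 12 libraries no genotype passed the threshold (log2 -1.12 ± 0.33, -1.42 ± 0.40 and -0.81 ± 0.31, adjusted p = 0.008, 0.00918 and 0.0537, edgeR), whereas with all 18 the change in tfl1 did (log2 -1.83, adjusted p = 0.00204). In the wild type the change passed once the transcript length and GC trends were removed (log2 -1.30, adjusted p = 0.00335) and with all 18 libraries but the aberrant one (log2 -1.44, adjusted p = 0.00253).

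YUC4, which acts with YUC1 in flower and leaf primordia, had a narrow range. In ft it had 6.22, 6.31 and 6.24 CPM before and 4.11, 4.55 and 4.62 CPM after FRP, without overlap, and the log2 fold change of -0.52 ± 0.14 missed the threshold (adjusted p = 0.01, edgeR). It passed when either treated wild-type library was left out of the joint fit (log2 -0.53 in both, adjusted p = 0.00427 and 0.00417). The wild type had 4.82, 5.46 and 5.34 CPM and then 5.03, 2.82 and 3.75 CPM, and tfl1 had 4.67 to 5.09 and then 3.905 to 4.85 CPM, so both overlapped.

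YUC8 was the synthesis gene with a clear rise, and that rise was in ft. The libraries labelled ft had 6, 8 and 17 counts (0.19, 0.26 and 0.56 CPM) untreated and 70, 75 and 55 counts (2.12, 2.24 and 1.61 CPM) after FRP. The groups did not overlap, and YUC8 was upregulated 4.46-fold (log2 2.16 ± 0.33, adjusted p = 0.000377, edgeR). Leaving out 1 library gave log2 values from 1.71 to 2.79, and without replicate 2 of untreated ft, which left replicate 3 alone with its 17 counts, the call was lost. The wild-type libraries of YUC8 had 14, 23 and 18 counts (0.67, 0.89 and 0.86 CPM) before and 12, 16 and 20 (0.49, 0.76 and 0.66 CPM) after FRP, which overlapped. In tfl1 it had 16, 18 and 11 counts (0.47, 0.59 and 0.36 CPM) before and 26, 31 and 35 (0.76, 0.85 and 1.06 CPM) after FRP. These did not overlap, yet log2 1.11 ± 0.36 missed the threshold (adjusted p = 0.0186).

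YUC9, its close relative, was near the detection limit. The wild type had 4, 10 and 9 counts untreated and 16, 25 and 21 after FRP, without overlap but short of the threshold (log2 0.74 ± 0.38, adjusted p = 0.0938, edgeR). The ft libraries had 5, 4 and 2 counts untreated and 10, 9 and 15 after FRP, again without overlap and short of the threshold (log2 1.86 ± 0.52, adjusted p = 0.0123). In tfl1 the counts were 9, 6 and 4 untreated and 1, 11 and 2 after FRP, so that replicate 2, not among the 12, decided the outcome. Untreated to treated, the ratio of levels was 4.52 (95% counting interval 1.24 to 24.7) from 13 and 3 counts in the kept libraries, and 1.48 (0.703 to 3.19) from 19 and 14 counts in all.

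GH3.5, which joins amino acids to auxin and also to salicylic acid, was upregulated upon FRP in every genotype. Wild-type levels were 87.7, 46.8 and 39.4 CPM untreated and 141, 183 and 161 CPM treated. In tfl1 it rose from 41.3, 42.1 and 39.7 to 142, 194 and 153 CPM. In ft it rose from 52.8, 51.0 and 51.1 to 83.4, 123 and 107 CPM. Treated and untreated libraries did not overlap in any genotype. The rise was 3.5-fold in the wild type (log2 1.81 ± 0.12, adjusted p = 1.15e-07, edgeR), 3.64-fold in tfl1 (log2 1.87 ± 0.12, adjusted p = 2.4e-07) and 1.87-fold in ft (log2 0.90 ± 0.12, adjusted p = 0.000122). It held without any one library, with all 18 and with DESeq2. With transcript length and GC trends removed, the wild-type value was lower, at log2 1.11.

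GH3.6, the most abundant member and a gene whose activation dwarfs the plant, rose in tfl1. There it had 115, 104 and 108 CPM untreated and 179, 255 and 206 CPM after FRP, without overlap, a 1.73-fold rise (log2 0.79 ± 0.11, adjusted p = 6.79e-05, edgeR) that held without any one library. The wild type had 204, 132 and 114 CPM untreated and 155, 212 and 189 CPM treated. The 12 libraries gave a rise of log2 0.49 ± 0.11 (adjusted p = 0.0015), but the highest untreated value is the aberrant library, and with all 18 the call was lost (log2 0.31 ± 0.18, adjusted p = 0.141). It was also lost without replicate 3 of either wild-type group (log2 0.33 to 0.62 over the libraries left out), and with length and GC trends removed the value was -0.06. In ft, 184, 180 and 185 CPM before overlapped 152, 186 and 171 CPM after FRP (log2 -0.18 ± 0.11, adjusted p = 0.203).

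GH3.17, which mainly forms auxin-glutamate, rose in tfl1. It had 25.2, 22.4 and 25.5 CPM untreated and 31.8, 37.5 and 36.7 CPM treated, without overlap, a 1.35-fold rise (log2 0.44 ± 0.10, adjusted p = 0.00238, edgeR). The call was lost with the length and GC trends removed (log2 0.16, adjusted p = 0.14) and without replicate 3 of untreated ft, either treated wild-type, either untreated tfl1 or replicate 3 of treated tfl1 (log2 0.30 to 0.49). For the wild type GH3.17 had 35.6, 27.5 and 21.8 CPM before and 28.5, 27.9 and 27.7 CPM after FRP. These overlapped, and the log2 fold change went from 0.18 ± 0.10 to -0.35 when the trends were removed (adjusted p = 0.00413). In ft it stayed between 26.7 and 29.2 CPM.

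GH3.3, known as a quickly auxin-induced gene, fell in ft. It had 24.8, 24.8 and 23.9 CPM untreated and 13.2, 16.9 and 14.7 CPM treated, without overlap, a 1.74-fold decrease (log2 -0.80 ± 0.13, adjusted p = 0.000504, edgeR). The call was lost with all 18 libraries (log2 -0.71 ± 0.24, adjusted p = 0.0356) and without replicate 2 of untreated ft or replicate 1 of treated ft (log2 -0.88 to -0.72). The wild type had 30.03, 15.1 and 15.2 CPM untreated, the first in the aberrant library, and 15.2, 10.6 and 13.9 CPM after FRP. Its log2 fold change was -0.06 ± 0.14 with 12 libraries, -0.60 with 18 (adjusted p = 0.0362) and -0.63 with length and GC trends removed (adjusted p = 0.000257). In tfl1, 8.34, 13.0 and 11.9 CPM before overlapped 11.4, 15.5 and 12.6 CPM after FRP, and log2 0.25 ± 0.14 missed the threshold unless replicate 3 of untreated tfl1 was left out (log2 0.53, adjusted p = 0.00351).

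Counted over the 10 members, FRP changed 3 in the wild type (GH3.5 and GH3.6 up, YUC1 down), against 66.3% of all 21277 tested genes (edgeR, adjusted p at most 0.005). It changed 3 in tfl1 (GH3.5, GH3.6 and GH3.17, all up), against 46.1%. It changed 3 in ft (YUC8 and GH3.5 up, GH3.3 down), against 25.4%. With these 12 libraries the members' share was below the background in the wild type and tfl1 and near it in ft. Whether 10 genes depart from the background was not tested. The members' median log2 fold change was 0.06, 0.35 and -0.14 for wild type, tfl1 and ft, against -0.02, 0.02 and -0.01 over all tested genes. With all 18 libraries, 2, 4 and 2 members passed, against 52.6%, 35.6% and 11.9%. The share was then below the background in the wild type only. Summed over the 5 YUC genes, the level was 10.8 ± 1.3 CPM (SD, n = 3) in the untreated and 7.37 ± 1.54 CPM in the treated wild type, 7.95 ± 0.22 and 7.35 ± 0.89 CPM in tfl1, and 10.9 ± 0.3 and 9.94 ± 0.07 CPM in ft. Summed over the 4 GH3 members it was 256 ± 89 and 388 ± 47 CPM in the wild type, 185 ± 4 and 425 ± 70 CPM in tfl1, and 288 ± 3 and 316 ± 39 CPM in ft. The GH3 sums of treated and untreated libraries overlapped in ft and in the wild type but not in tfl1, and the wild-type overlap came from the aberrant library.

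**Figure D2:**
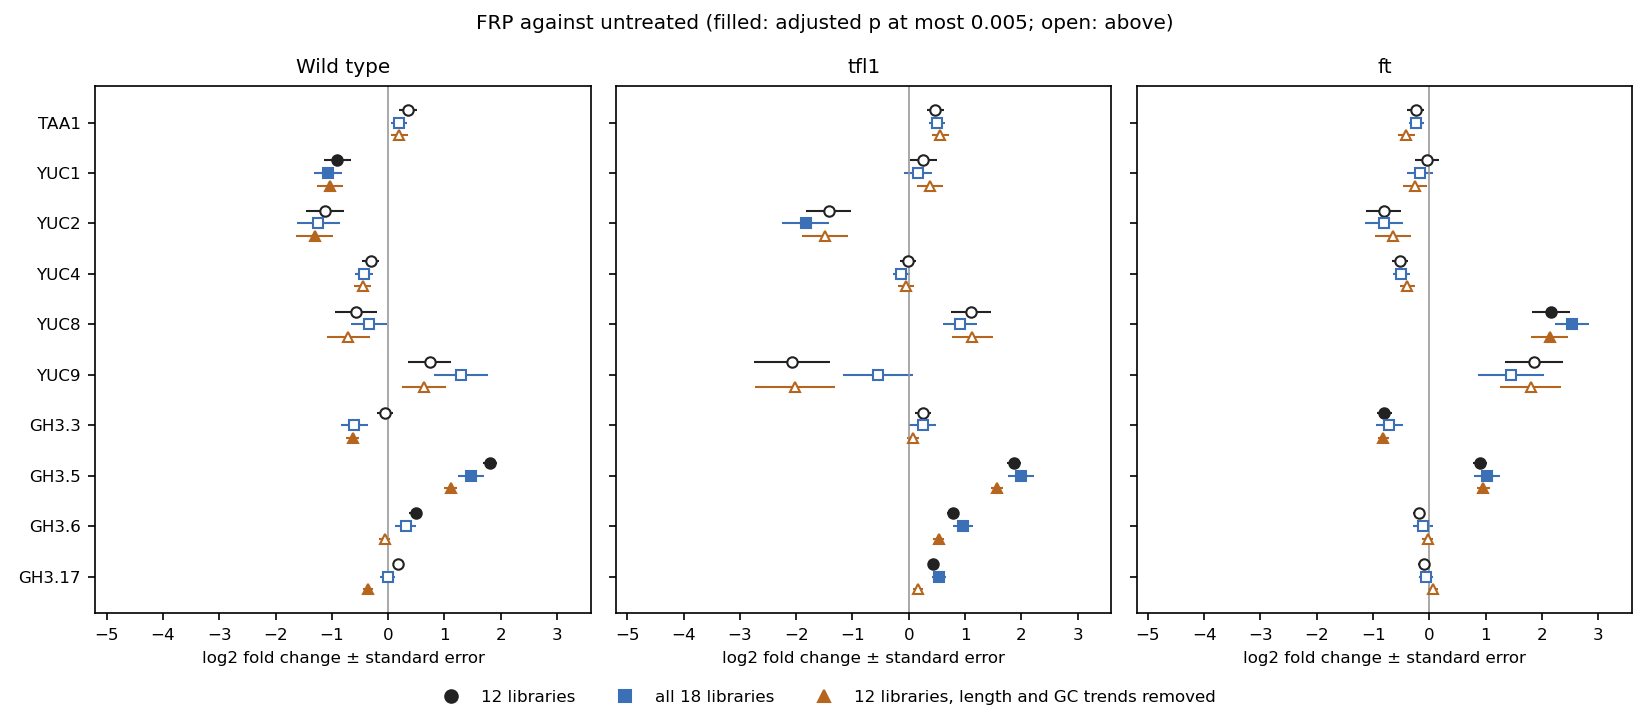
FRP effect on each gene, as log2 fold change with its standard error, in the 3 genotypes. Circles are the 12 libraries, squares all 18 and triangles the 12 with length and GC trends removed, filled where the adjusted p was at most 0.005. GH3.5 in all genotypes, YUC8 in ft, YUC1 in the wild type and GH3.6 in tfl1 are filled under all 3 settings. GH3.6 and GH3.17 in the wild type move across 0.

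Whether the response to FRP differed between genotypes was tested as a difference of effects. Wild type minus ft and tfl1 minus ft share the ft libraries. Wild type minus ft differed for 4 of the 10 members, against 58.5% of all genes. YUC8 responded more weakly in the wild type (log2 -2.73 ± 0.51, adjusted p = 0.000434, edgeR), a value that also passed in all 18 libraries (-2.87), with the trends removed (-2.85) and without any one library. GH3.3, GH3.5 and GH3.6 responded more positively in the wild type than in ft, by log2 0.74 ± 0.19, 0.91 ± 0.17 and 0.66 ± 0.15 (adjusted p = 0.00387, 0.000383 and 0.00211). With all 18 libraries YUC8 alone passed, against 31.1% of genes. The other 3 passed neither there (log2 0.11, 0.47 and 0.42) nor with the trends removed (0.19, 0.15 and -0.03). The GH3.3 call was lost without any one of its 8 libraries (log2 0.66 to 0.82). That of GH3.6 was lost without either untreated ft, replicate 1 of treated ft, or replicate 3 of the untreated or treated wild type (0.51 to 0.80), while that of GH3.5 held without any one library (0.74 to 1.10). Between these groups the libraries also differed in how level depended on transcript length. The slope of a library's log2 CPM deviation on log2 exon length was -0.351 and -0.362 in the kept untreated and 0.302 and 0.303 in the kept treated wild-type libraries, and -0.211 to 0.0353 in the kept ft libraries.

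Against ft, tfl1 also differed for 4 members, against 40.3% of all genes. GH3.3, GH3.5 and GH3.6 responded more positively in tfl1, by log2 1.05 ± 0.19, 0.96 ± 0.16 and 0.97 ± 0.15 (adjusted p = 0.000599, 0.000447 and 0.000266, edgeR). All 3 held without any one library, but with all 18 only GH3.6 of the 10 members passed, against 17.9% of genes (1.08, adjusted p = 0.00423). GH3.3 and GH3.5 then stood at 0.97 (adjusted p = 0.0302 and 0.0243). With the trends removed from the 12, GH3.6 missed the threshold (0.56, adjusted p = 0.00573). YUC9 gave -3.93 ± 0.86 (adjusted p = 0.00206), which rests on 3 counts in the treated tfl1 libraries and was lost with all 18 libraries (-2.01, adjusted p = 0.0709), with DESeq2 (adjusted p = 0.00965) and without replicate 3 of untreated or treated ft, replicate 1 of untreated tfl1 or either treated tfl1 (-4.50 to -3.33). For YUC8 the difference was -1.05 ± 0.52 (95% interval -2.06 to -0.04, adjusted p = 0.101), and -1.63 with all 18 libraries (adjusted p = 0.00839), which passed without the aberrant one (adjusted p = 0.00442). TAA1 missed the threshold with 12 libraries (0.72 ± 0.22, adjusted p = 0.0134) and passed with the trends removed (0.97, adjusted p = 0.00229). Between tfl1 and the wild type, 0 of 10 members differed in the edgeR test, against 27.8% of all genes. At an unadjusted p under 0.05 there were 3, and DESeq2 gave 0. All 18 libraries also gave 0, with 6 at an unadjusted p under 0.05, against 4.75% of genes. For GH3.5 the difference was 0.06, with a 95% interval of -0.27 to 0.38. With the trends removed, 3 members passed (YUC1, GH3.3 and GH3.6, all more positive in tfl1), against 24.9%.

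**Figure D3:**
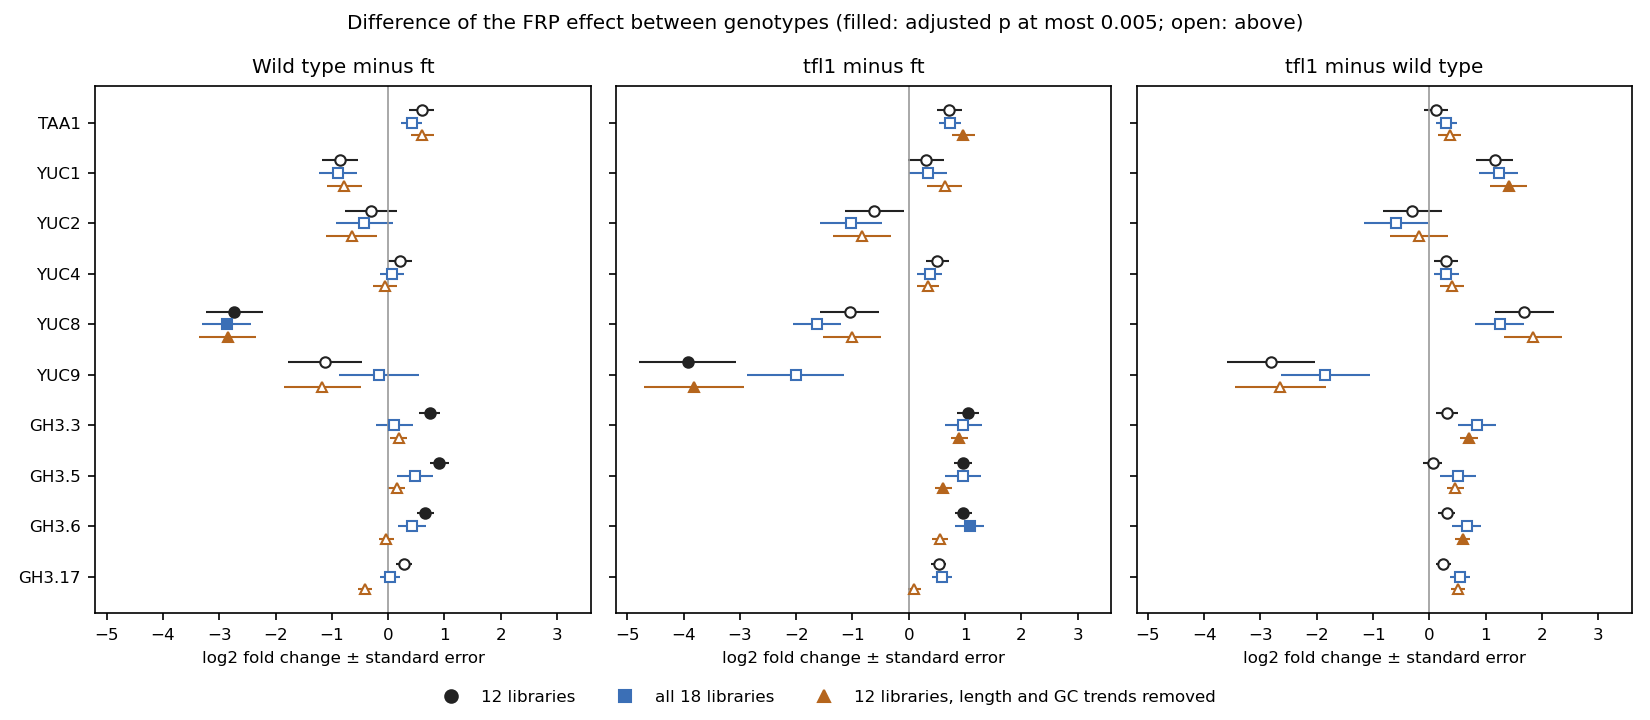
Difference of the FRP effect between genotypes for each gene, on the log2 scale with its standard error, with symbols as in the plot of FRP effects. YUC8 is filled under all 3 settings for wild type minus ft, while GH3.3, GH3.5 and GH3.6 for that comparison lie at 0.66 to 0.91 with 12 libraries and nearer 0 under the other settings.

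Genotypes were also compared at 1 treatment. In untreated plants, YUC1 was lower in tfl1 than in the wild type (log2 -1.0 ± 0.23, adjusted p = 0.00477, edgeR), the only call among 10 members, against 24.5% of genes. All 3 tfl1 libraries lay below all 3 wild-type ones, but the call was lost with all 18 (-1.05, adjusted p = 0.00788), with DESeq2 (-0.98, adjusted p = 0.00885) and without any one of the 12 libraries except replicate 2 of untreated ft (-1.19 to -0.82). Untreated ft had more GH3.3 and GH3.6 than the wild type, by log2 0.68 ± 0.13 and 0.57 ± 0.11 (adjusted p = 0.001 and 0.000972), 2 members against 39.9% of genes. Both were lost with all 18 libraries (0.29 and 0.29), with the trends removed (0.33 and 0.20), and without either untreated ft or replicate 3 of the untreated wild type, and GH3.3 also without replicate 2 (0.66 to 0.73 for GH3.3 and 0.47 to 0.68 for GH3.6). After FRP, tfl1 differed from the wild type in 1 member, against 12.9% of genes. This was YUC9, with 37 counts in the kept treated wild-type and 3 in the kept treated tfl1 libraries, a ratio of levels of 15.2 (95% counting interval 4.82 to 77.1). Over all treated libraries the counts were 62 and 14 and the ratio 6.08 (3.37 to 11.8), and the test missed the threshold (adjusted p = 0.00507). It also missed without replicate 3 of the treated wild type or replicate 1 of treated tfl1 (log2 -4.32 to -3.38). After FRP, ft differed from the wild type in 2 members, against 53.1% of genes. YUC8 was 3.16-fold higher (log2 1.66 ± 0.32, adjusted p = 0.000654), lost without replicate 1 of either treated group (1.45 to 1.92), and GH3.5 was lower (-0.67 ± 0.11, adjusted p = 0.000302), lost with all 18 libraries (-0.63, adjusted p = 0.026), with the trends removed (-0.35, adjusted p = 0.0114) and without replicate 3 of the treated wild type (-0.86 to -0.49). With all 18 libraries, these 4 comparisons called 0, 0, 0 and 1 of the 10 members, in the order given, against 6.81%, 0.41%, 2.67% and 32.9% of genes. The first 3 had 6, 2 and 3 members at an unadjusted p under 0.05.

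As background for the lists below, 66.3%, 46.1% and 25.4% of all genes were called in wild type, tfl1 and ft, in either direction. Among 8 further synthesis genes, 4 could be tested. In the wild type 2 fell, YUC6 (log2 -1.32 ± 0.16, adjusted p = 1.23e-05, edgeR) and the TAA1 relative TAR2 (-0.59 ± 0.14, adjusted p = 0.00226). In tfl1 and ft 0 passed with edgeR or DESeq2 in 12 libraries, with 1 at an unadjusted p under 0.05 in each, and with the length and GC trends removed YUC6 fell in tfl1 (-0.83 ± 0.16, adjusted p = 0.000777). The medians of the 4 were -0.96, -0.62 and -0.15 in the wild type, tfl1 and ft.

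Among 6 further GH3 genes, 5 were tested. GH3.9 was upregulated in every genotype. It had 9.63 to 12.3 CPM untreated and 63.9 to 70.0 CPM treated in the wild type, 7.15 to 8.90 and 27.3 to 43.4 CPM in tfl1, and 10.2 to 11.8 and 19.3 to 30.2 CPM in ft. The log2 fold changes were 2.76 ± 0.14, 2.08 ± 0.14 and 0.99 ± 0.14 (adjusted p = 2.61e-08, 4.21e-07 and 0.000223, edgeR). With length and GC trends removed, those of GH3.9 lay closer together, at 1.80 ± 0.11, 1.56 ± 0.11 and 1.19 ± 0.11, and all passed. JAR1, which conjugates jasmonate and not auxin, fell in tfl1 (-0.63 ± 0.09) and ft (-0.59 ± 0.09), and GH3.2 (-1.14 ± 0.14) and GH3.10 (-0.60 ± 0.08) fell in ft. With all 18 libraries, GH3.9 and JAR1 alone passed in ft. In total 1 of the 5 rose and 0 fell in the wild type, 1 rose and 1 fell in tfl1, and 1 rose and 3 fell in ft, with medians of 0.02, -0.04 and -0.59. With the trends removed, GH3.10 (-1.19, adjusted p = 2.03e-07) and JAR1 (-0.62, adjusted p = 1.64e-05) also fell in the wild type and GH3.10 in tfl1 (-0.81, adjusted p = 5.27e-06), while GH3.10 in ft missed the threshold (-0.34, adjusted p = 0.00626).

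Of 5 genes that inactivate auxin by oxidation, glycosylation or methylation, 3 were tested. In the wild type the oxidase gene DAO2 (log2 -1.80 ± 0.21) and the methyltransferase gene IAMT1 (-1.31 ± 0.20) fell, while in tfl1 and ft 0 passed with edgeR or DESeq2 in 12 libraries, with 1 at an unadjusted p under 0.05 in each. In tfl1, IAMT1 passed with all 18 libraries (-0.58, adjusted p = 0.00249) and DAO1 with the trends removed (0.45, adjusted p = 0.000484). The medians were -1.31, -0.16 and -0.24. Of 7 amidohydrolase genes that free auxin or jasmonate from conjugates, 6 were tested, and 3 rose in the wild type (ILR1, ILL1 and ILL2), 3 in tfl1 (ILL1, ILL2 and ILL6) and 1 in ft (ILL6), with medians of 0.27, 0.31 and 0.12. ILL1 rose by log2 1.02 ± 0.08 in the wild type and 0.87 ± 0.08 in tfl1. ILL6 rose by 0.78 ± 0.11 in tfl1 and 1.03 ± 0.11 in ft. With the trends removed, ILR1 and ILL2 in the wild type missed the threshold (adjusted p = 0.00741 and 0.0105), ILL6 fell there (-0.88, adjusted p = 1.22e-05), and IAR3 rose in ft (0.46, adjusted p = 0.00159). Of 4 genes of tryptophan supply, ASA1, the regulated subunit of anthranilate synthase, rose in all genotypes (log2 1.06 ± 0.22, 1.33 ± 0.21 and 0.93 ± 0.21), but in the wild type not with the trends removed (0.53 ± 0.19, adjusted p = 0.0255). ASB1, TSA1 and TSB1 fell in the wild type and TSA1 and TSB1 in tfl1, by -0.63 to -0.30, and with all 18 libraries ASB1 alone still passed in the wild type. With the trends removed, TSA1 also fell in ft (-0.32, adjusted p = 0.00192). The medians of the 4 were -0.42, -0.23 and -0.06.

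All 7 early auxin-induced genes fell in the wild type, with a median of -2.25. They include the auxin repressor gene IAA1 (log2 -2.25 ± 0.10), IAA29 (-3.18 ± 0.30) and SAUR15 (-4.02 ± 0.38), and each also passed with all 18 libraries. The ethylene synthesis gene ACS4 was at 0 in both kept treated wild-type libraries and at least 7.05-fold lower there than in untreated ones, against a limit of 3 counts per library. In tfl1, 4 fell and 0 rose (median -0.84), and HAT2 missed the threshold with the trends removed (-0.27, adjusted p = 0.00511). In ft, IAA1 (-0.47 ± 0.09) and HAT2 (-0.48 ± 0.08) fell and IAA19 rose (1.10 ± 0.19), with a median of -0.08. For all lists together, the background of called genes is that given above for each genotype.

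**Figure D4:**
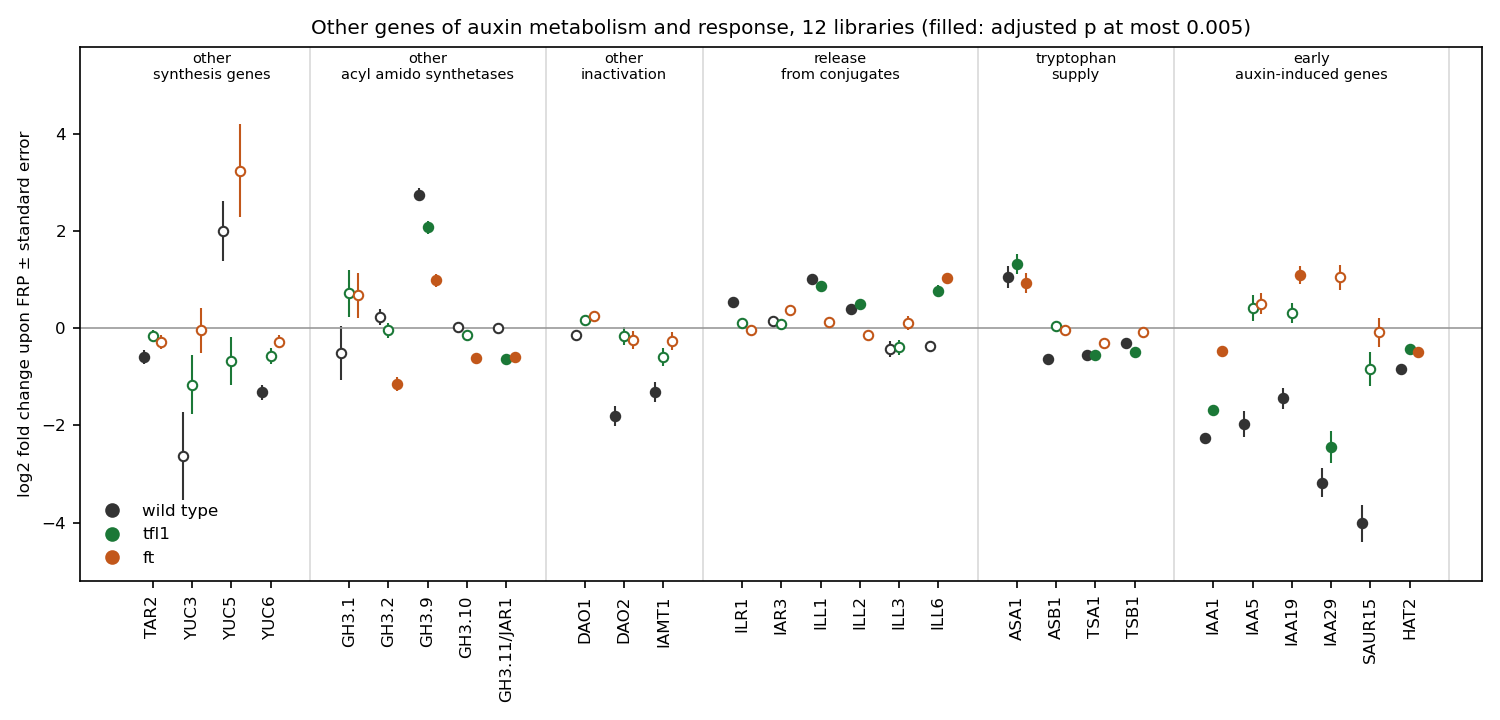
FRP effect on the other genes of auxin metabolism and response, as log2 fold change with its standard error in 12 libraries, grouped by list, filled where the adjusted p was at most 0.005. ACS4, at 0 in treated wild-type libraries, is left out. GH3.9 and ASA1 lie above 0 in all genotypes, and the early auxin-induced genes lie below 0 in the wild type.

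Across the 18 libraries, which share genotypes and treatments, members of either branch varied together in some pairs and oppositely in others. As a description, Pearson's r of log2 level was 0.83 for GH3.6 and GH3.17, 0.77 for GH3.5 and GH3.6, 0.69 for YUC2 and YUC4 and 0.67 for YUC1 with either of these. It was -0.68 for YUC4 and YUC9, -0.42 for YUC4 and YUC8 and -0.15 for GH3.3 and GH3.5. Across branches, r was -0.75 for YUC2 and GH3.5 and 0.60 for YUC1 and GH3.3. TAA1, the highest synthesis member, was most like MAP65-5, a microtubule-bundling protein gene (r = 0.9004), RFC3, a replication factor C subunit gene (0.897), and AT1G48580 (0.890). GH3.6 was most like VLN2, a gene of the actin-binding villins (0.937), AT1G18660 (0.932) and sks17 (0.929), out of 21441 other genes.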

How the data were processed

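The authors deposited 1 table of raw counts per library. Per the study's methods and the submitters' processing notes, reads were trimmed, mapped to TAIR10 with STAR 2.5.3a and counted on Araport11 genes with HTSeq 0.7.2, without strand and above a mapping-quality limit that leaves out reads with several places. Reads on no gene, on several genes or with several places made up 7.98% to 10.9% of all reads. Every line that names no gene was set aside. Without strand, antisense reads could not be separated. No member overlaps another annotated gene in TAIR10.1, whose chromosome lengths equal those of TAIR10.

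A gene entered the tests if 2 or more libraries had 10 or more counts of it, which left 21277 genes for the 12 libraries and 21442 for all 18. Counts were scaled by TMM, and the 6 conditions were fitted together with edgeR 4.0.16 (quasi-likelihood test, limma 3.58.1, R 4.3.3). Every adjusted p is Benjamini-Hochberg adjusted over all tested genes, with 0.005 as the threshold, from edgeR unless DESeq2 1.42.0 is named. With 2 libraries per condition, the spread is shared over all 6, and printed CPM use TMM factors over the 18 libraries. The scripts were tested on simulated data.

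Alternatives were all 18 libraries, these with a block for replicate number, leaving out each library, DESeq2, its size factors, another filter, only the groups compared, a threshold of 0.05, and removal of smooth trends on transcript length and GC content (99.2% of genes had lengths). All 18 libraries without replicate 1 of the untreated wild type, and all 18 with trends removed, were added after seeing the data. In no pair of groups did all 3 same-numbered libraries deviate together, so the numbers were not taken as pairs. Replicates 1 and 2 did so in some, most in treated ft and treated tfl1 (r = 0.62 and 0.61, against -0.04 for replicate 3). Deviations were taken from the mean of 3 libraries, and replicate 3 can lie near that mean when the others lie apart. The rule of all 3 therefore cannot exclude pairing. A batch shared by these replicates was not tested. The kept libraries were replicates 2 and 3 untreated but 1 and 3 treated in the wild type and ft. In tfl1 they were 1 and 3 in both groups. A difference between replicates 1 and 2 would thus fall partly together with FRP in the wild type and ft, but not in tfl1. Named genes are the 10 members, and of each other list at most 4 genes past the threshold with the largest changes. HAT2, IAA19 and the remaining members named in counts of 5 or fewer go beyond that rule. The members and lists were chosen with earlier results of these data known. Intervals from counts cover counting error only.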

Additional observations from a re-analysis of the deposited data

Results flagged for a closer look

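For 8 results the response to FRP differed between 2 genotypes by a direct edgeR test of the difference, at an adjusted p of at most 0.005. For wild type minus ft these were YUC8 (log2 -2.73), GH3.3 (0.74), GH3.5 (0.91) and GH3.6 (0.66), 4 of 10 members against 58.5% of all tested genes. For tfl1 minus ft they were YUC9 (-3.93), GH3.3 (1.05), GH3.5 (0.96) and GH3.6 (0.97), 4 of 10 members against 40.3%. Both sets share the ft libraries. Of the 8, YUC8 in wild type minus ft and GH3.6 in tfl1 minus ft also passed with all 18 libraries. With length and GC trends removed, GH3.3, GH3.5 and GH3.6 in wild type minus ft missed the threshold (0.19, 0.15 and -0.03). So did GH3.6 in tfl1 minus ft (0.56). The YUC9 value rests on 3 counts in the kept treated tfl1 libraries.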

How the results depend on the processing

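The direction and call of GH3.5 upon FRP in the wild type and tfl1, of GH3.6 upon FRP in tfl1, and of YUC8 in wild type minus ft, held under every alternative run. Of 23 calls with 12 libraries, 10 were kept with all 18, 20 with DESeq2, 22 with its size factors, 14 with length and GC trends removed and 21 with all 18 but the aberrant library. The causes of lost calls were not tested, except that fewer libraries or groups enter some fits. With all 18 libraries the count of members called became 1 in wild type minus ft, 1 in tfl1 minus ft, 0 in untreated tfl1 and 0 in untreated ft against wild type, 0 in treated tfl1 and 1 in treated ft against wild type (6, 2 and 3 members had an unadjusted edgeR p under 0.05 where 0 passed). With trends removed it was 5 in the wild type, 3 in tfl1 minus wild type, 1 in wild type minus ft, and 2, 0 and 2 in untreated tfl1, untreated ft and treated tfl1 against wild type. With both, it was 2, 1 and 1 in tfl1 minus wild type, wild type minus ft and tfl1 minus ft, and 3, 0, 2 and 1 in untreated tfl1, untreated ft, treated tfl1 and treated ft against wild type. With all 18 but the aberrant library it was 5 in tfl1. With a threshold of 0.05 it was 7 in tfl1, 5 in ft, 3 in tfl1 minus wild type, 7 in tfl1 minus ft, and 4, 4, 3 and 5 in untreated tfl1, untreated ft, treated tfl1 and treated ft against wild type. With only the groups compared it was 1 in the wild type, and 0 and 0 when untreated or treated tfl1 was set against wild type, and with DESeq2 size factors 0 in untreated tfl1 against wild type. Leaving out 1 library gave 1 to 4 in the wild type, 2 to 4 in tfl1, 1 to 4 in ft, 2 to 4 in wild type minus ft, 3 to 5 in tfl1 minus ft, and 0 to 1, 0 to 2, 0 to 1 and 1 to 2 in untreated tfl1, untreated ft, treated tfl1 and treated ft against wild type. Shares of all genes are given above for all 18 libraries, and with trends removed for tfl1 minus wild type. The other counts here have no such background. At 0.05 the share cannot be below that at 0.005, which was 46.1% in tfl1, 25.4% in ft and 40.3% in tfl1 minus ft.

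With a replicate block in the fit of all 18 libraries, 1 member was called in ft, 1 in wild type minus ft, 0 in tfl1 minus ft, 0 in untreated ft and 0 in treated tfl1 against wild type. GH3.5 in ft then missed the threshold (log2 1.01, adjusted p = 0.00732, edgeR). Whether equal replicate numbers mark a shared batch is not stated in the labels.

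Some directions turned. For GH3.6, trends removed gave -0.06 in the wild type and -0.03 in wild type minus ft (with all 18 libraries, -0.05 and -0.05). GH3.17 in the wild type was -0.01 with all 18 libraries, -0.01 with the block, -0.35 with trends removed and -0.39 with both, the last 2 past the threshold (adjusted p = 0.00413 and 0.000861). GH3.17 in ft was 0.06 with trends removed and 0.05 with both. With both, GH3.3 and GH3.5 in wild type minus ft were -0.23 and -0.01. Over the libraries left out, GH3.3 ranged from -0.14 to 0.00 in the wild type, YUC4 from -0.07 to 0.05 in tfl1 and YUC1 from -0.27 to 0.21 in ft. Removing the trends moved the median of all genes to -0.10 in the wild type and 0.10 in tfl1 minus wild type. YUC8 and YUC9 had few counts, which limits what depth can show.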
